A study of Mus musculus with 32 samples.

Results

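The 10 genes described here are used as readouts of the epithelial and mesenchymal state of tumor cells and of the myoepithelial layer of the mammary gland: Cdh1, Cdh2, Vim, Fn1, S100a4, Snai1, Snai2, Zeb1, Acta2 and Trp63. They were taken by symbol from the 33654 genes that all 4 deposited tables share, and all 10 were found in each table. RNA was sequenced from mouse breast cancer cells of the MMTV-PyMT model and from CD8 T cells of the same kind of tumor, 32 libraries in all. In this model the mouse mammary tumor virus promoter drives the polyoma middle T oncogene in mammary epithelium. The time course held tumor cells at week 2 (early, n = 3), week 3 (middle, n = 4) and week 4 (late, n = 4) of tumor development, and CD8 T cells at the same weeks (n = 3 each). The knockdown set came from xenografts and held tumor cells and CD8 T cells from shCTRL tumors (control hairpin, genotype given as WT) and from shMogat1 tumors (hairpin against Mogat1, genotype given as Mogat1 knockdown), with n = 3 in each of these 4 groups. All tumor cells in both sets carry the MMTV-PyMT label. The labels do not give strain, host, age or the number of animals behind the libraries, so p-values measure the spread between these libraries, which may be technical.

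Epithelial cells are held together by E-cadherin, the product of Cdh1. In epithelial-mesenchymal transition, transcription factors of the Snail, Zeb and Twist families repress Cdh1 by binding E-box sequences, while N-cadherin, vimentin, fibronectin and S100a4 increase and cells become more motile. In the mammary gland, smooth muscle actin (Acta2) and p63 (Trp63) mark the contractile myoepithelial cells around the luminal layer, and Snai2 is also made in basal cells. Fibroblasts, pericytes and leukocytes make several of these RNAs too, Vim above all.

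The promoters of 2 members, S100a4 and Snai1, are shown because only these had a window that could be printed. The sources used here held no usable window for Cdh1, Cdh2, Fn1, Snai2, Zeb1 and Trp63, and those of Vim and Acta2 overlap annotated exons. S100a4 fell most over the time course, and Snai1 is itself one of the E-box binding repressors. Each stretch is the 250 bases before the RefSeq start site on the plus strand of GRCm38.p6, at chr3:90603520-90603769 for S100a4 and chr2:167537945-167538194 for Snai1. Capitals mark CACCTG or its reverse complement CAGGTG, the E-box form that Snail and Zeb proteins bind.
S100a4: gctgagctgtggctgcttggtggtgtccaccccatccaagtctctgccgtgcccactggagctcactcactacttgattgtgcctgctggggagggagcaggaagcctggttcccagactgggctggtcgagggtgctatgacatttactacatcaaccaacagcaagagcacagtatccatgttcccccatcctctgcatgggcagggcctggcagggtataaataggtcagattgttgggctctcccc
Snai1: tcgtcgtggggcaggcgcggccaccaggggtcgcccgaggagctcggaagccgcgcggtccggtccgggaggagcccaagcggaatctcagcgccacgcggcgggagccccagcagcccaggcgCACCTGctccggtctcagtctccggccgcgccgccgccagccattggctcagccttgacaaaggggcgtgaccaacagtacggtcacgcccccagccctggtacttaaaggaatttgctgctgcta
The Snai1 window held 1 such E-box, starting 126 bases before the start site, and the S100a4 window held none. The motif, on both strands, was in 5657 of 32851 promoter windows of this length (17.2%). A match is a description of the letters and not a shown binding site.

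In libraries of sorted cells other cell types can contribute RNA, so their markers were read first. All 11 time course libraries had the epithelial markers Epcam (249 to 567 TPM), Krt8 and Krt18. TPM is the read number scaled for gene length and for the library total. Summed fibroblast markers (8 genes) ranged from 2156 to 7045 TPM at week 2, from 1114 to 5906 at week 3 and from 2005 to 6430 at week 4. Summed T cell markers (7 genes) were at 62.1 to 216 TPM at week 2, 25.5 to 72.5 at week 3 and 10.02 to 29.0 at week 4. In these bulk libraries fewer cells of a type and less RNA per cell cannot be told apart.

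Over the time course the epithelial cadherin rose and most of the mesenchymal genes fell. Between week 2 and week 4, Cdh1 rose 1.93-fold while Vim fell to 0.165, Cdh2 to 0.109 and S100a4 to 0.0255 of their week 2 means. Snai1 and Trp63, in contrast, went up, and Fn1 and Acta2 did not pass the test. In all, 3 of the 10 members rose (29.2% of all tested genes did) and 5 fell (17.1% of all tested genes did), so that 8 of 10 passed against 46.3% of the 14770 genes tested. The groups did not overlap for 6 of 10 members, against 45.0% of all genes. The median log2 change was -0.23 over the members and 0.11 over all tested genes. Cdh2 passed the filter on low values only through weeks 2 and 3, where it is high; over the other 9 members 3 rose and 4 fell, and the median was 0.22, of the opposite sign. Rescaling the libraries by median-of-ratios moved that all-gene median by 0.12 in this comparison and by 0.15 between weeks 2 and 3, and the member changes here are given before that shift. No member that passed the test turned direction under it, but calls were lost. With limma after rescaling, Snai1 from week 2 to 4 had an adjusted p of 0.0534 and Trp63 from week 2 to 3 had 0.0551.

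**Figure D1:**
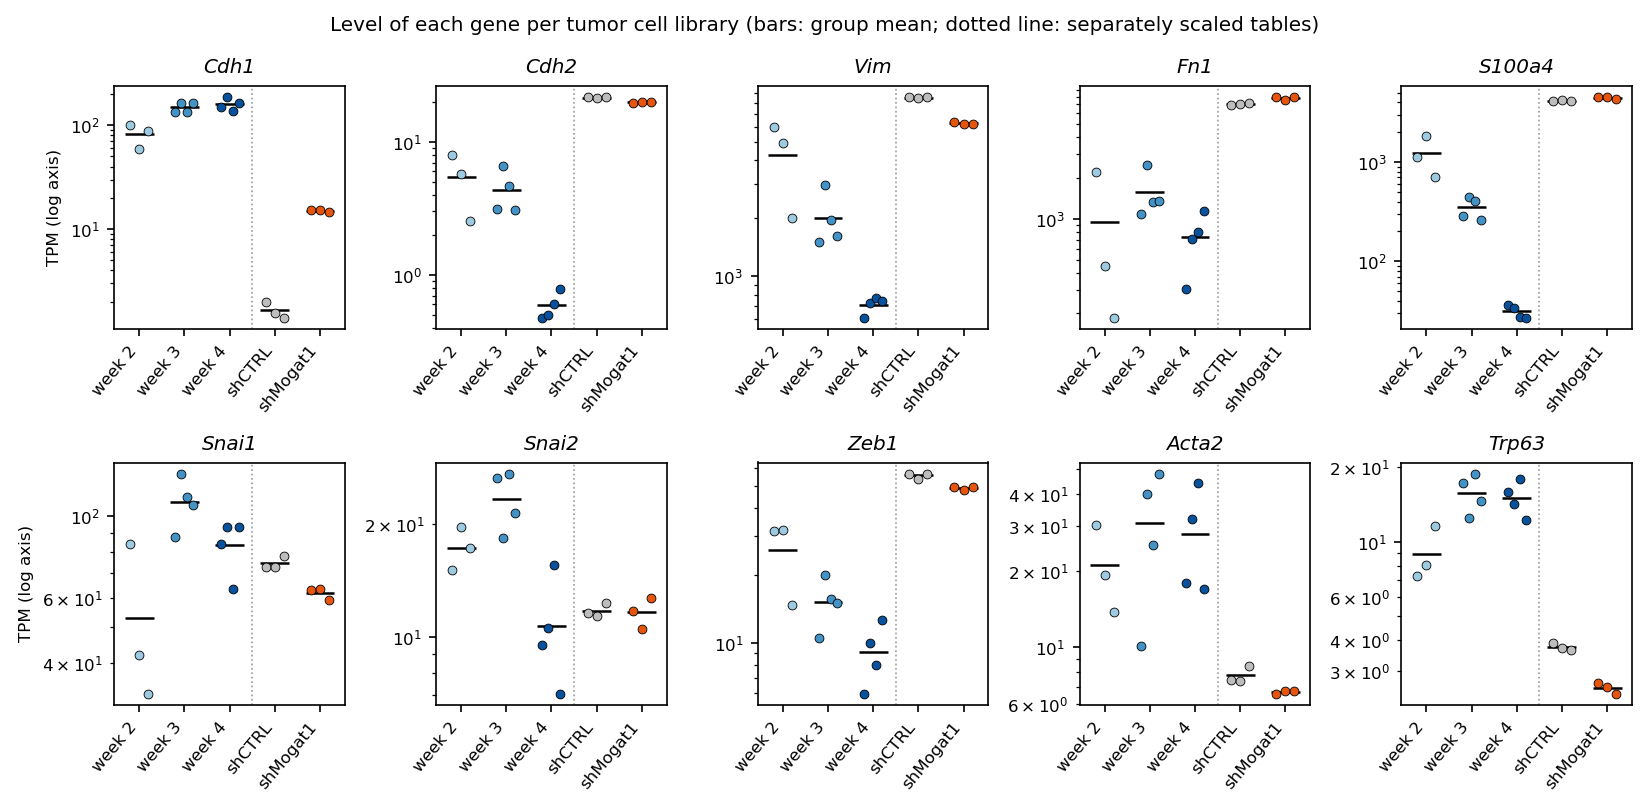
Level of each of the 10 genes in TPM (log axis, 1 panel per gene) in every tumor cell library at weeks 2, 3 and 4 and in the shCTRL and shMogat1 libraries; points are libraries, bars are group means, and the dotted line parts tables that were scaled separately. S100a4 steps down each week from a mean of 1228 to 31.3 TPM, and the knockdown set has more Vim, S100a4 and Cdh2 and less Cdh1 than any time course library.

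The cadherins went opposite ways, Cdh1 by week 3 and Cdh2 after it. Values are listed in the order of the replicate numbers. Cdh1 (chr8:106603351-106670246, plus strand, GRCm38) stood at 101, 59.2 and 87.2 TPM at week 2, at 133, 163, 134 and 164 at week 3, and at 149, 187, 136 and 164 at week 4. Every library of weeks 3 and 4 was above every week 2 library, and weeks 3 and 4 overlapped. Week 3 against week 2 gave a log2 change of 0.87 (SE 0.17, adjusted p = 0.00638, limma with Benjamini-Hochberg adjustment) and week 4 against week 3 gave 0.09 (SE 0.16, 95% interval -0.26 to 0.45, adjusted p = 0.751). Week 4 against week 2 gave 0.96 (SE 0.17, adjusted p = 0.00122). Cdh2, which encodes N-cadherin, was at 7.98, 5.72 and 2.52 TPM at week 2, at 3.11, 6.602, 4.63 and 3.07 at week 3, and at 0.478, 0.496, 0.606 and 0.780 at week 4. Weeks 2 and 3 overlapped, and all 4 week 4 libraries lay below all others. It fell between weeks 3 and 4 (log2 change -1.71, SE 0.29, adjusted p = 0.0033) and did not pass the test between weeks 2 and 3 (-0.21, 95% interval -0.89 to 0.47, adjusted p = 0.66). The week 4 values rest on 55 to 90 reads per library, against 397 to 1076 at week 2. Cdh2 passed the filter on low values (1 TPM in at least 3 libraries) only through weeks 2 and 3, so a difference from week 4 was built into its being tested.

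The filament and matrix genes split into a pair that fell and one that varied. Vim (chr2:13573927-13582826, plus strand), the intermediate filament vimentin, measured 5968, 4912 and 2015 TPM at week 2, 1509.9, 2965, 1964 and 1618 at week 3, and 608, 729, 766 and 738 at week 4. Week 2 replicate 3 lay inside the week 3 range, while week 4 lay below everything else. Week 4 against week 2 gave a log2 change of -2.46 (SE 0.34, adjusted p = 0.000207) and week 4 against week 3 gave -1.46 (SE 0.31, adjusted p = 0.0114). Week 3 against week 2 missed the threshold (-1.004, SE 0.34, adjusted p = 0.0508), and passed it without week 2 replicate 3 (-1.48, adjusted p = 0.0028) without week 3 replicate 2 (-1.21, adjusted p = 0.029) or after median-of-ratios rescaling (-1.18, adjusted p = 0.0245).

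S100a4 (chr3:90603771-90606045, plus strand) encodes a small calcium-binding protein linked to cell motility. It had 1133, 1846 and 704 TPM at week 2, 287, 442, 406 and 262 at week 3, and 36.7, 33.6, 27.6 and 27.1 at week 4. The weeks did not overlap at either step, and this was the member with the largest change. The log2 change was -1.74 from week 2 to 3 (SE 0.29, adjusted p = 0.00255), -3.42 from week 3 to 4 (SE 0.27, adjusted p = 6.44e-05) and -5.15 over both steps (SE 0.29, adjusted p = 2.34e-06). Genes annotated on the same strand overlap S100a4, Zeb1 and Trp63, and genes on the opposite strand overlap Cdh2, Fn1, Zeb1 and Trp63; how such reads were counted is not given in the sources used here.

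Fn1, the matrix protein fibronectin, had no such course. Its TPM was 2220.0, 448 and 186 at week 2, 1083, 2498, 1338 and 1360.4 at week 3, and 304, 708, 803 and 1138 at week 4. The week 2 libraries alone spanned most of the range of the whole course (951 ± 1107, SD, n = 3), and all pairs of weeks overlapped. None of the 3 comparisons passed the test (adjusted p = 0.174, 0.274 and 0.815 for weeks 3 against 2, 4 against 3 and 4 against 2). The rise to week 3 depended on 1 library: without week 2 replicate 1 the log2 change was 2.36 (adjusted p = 0.00474) in place of 1.38. Summed fibroblast markers were 7022 TPM in that library, 7045 in week 2 replicate 2 and 2156 in week 2 replicate 3. Fn1 was at 2220.0, 448 and 186 TPM in these 3. At week 3 the sums (1114, 5906, 2294 and 3102 TPM) lay in the same order as Fn1, and at week 4 the lowest and highest sums (2005 and 6430) fell in the libraries with the lowest and highest Fn1. Their part in the result was not tested.

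The transcription factors did not move as 1 group. Snai1 (chr2:167538195-167542814, plus strand) measured 84.0, 42.0 and 33.0 TPM at week 2, 87.7, 130, 112 and 107 at week 3, and 84.0, 93.1, 63.5 and 93.1 at week 4. All 4 week 3 libraries were above week 2, while week 4 overlapped both. Snai1 rose from week 2 to 3 (log2 change 1.13, SE 0.27, adjusted p = 0.0137; 0.0685 without week 2 replicate 2). Its rise from week 2 to 4 was near the threshold (0.74, SE 0.27, adjusted p = 0.0424) and was lost in 9 of 14 alternative fits, with adjusted p up to 0.173 when week 2 replicate 3 was left out.

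Snai2 had its lowest mean at week 4. It had 15.0, 19.6 and 17.2 TPM at week 2, 26.4, 18.3, 27.2 and 21.3 at week 3, and 9.50, 10.6, 15.5 and 7.03 at week 4. Only week 4 lay clear of week 3, and week 4 replicate 3 fell inside the week 2 range. Snai2 fell from week 3 to 4 (log2 change -1.09, SE 0.21, adjusted p = 0.00615) and from week 2 to 4 (-0.69, SE 0.22, adjusted p = 0.0257), the latter lost in 7 of 14 alternative fits (adjusted p up to 0.0952, without week 2 replicate 2). Week 3 against week 2 did not pass (0.40, 95% interval -0.09 to 0.89, adjusted p = 0.211).

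Zeb1 fell gradually. Its TPM was 31.7, 31.8 and 14.8 at week 2, 10.6, 20.02, 15.6 and 15.0 at week 3, and 5.91, 10.01, 7.99 and 12.6 at week 4. Neighbouring weeks overlapped, and weeks 2 and 4 did not. The log2 change was -1.38 from week 2 to 4 (SE 0.31, adjusted p = 0.00381), with -0.69 (adjusted p = 0.125) and -0.70 (adjusted p = 0.13) for the single steps.

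Of the myoepithelial pair, Trp63 rose and Acta2 did not pass the test. Trp63 had 7.24, 8.03 and 11.6 TPM at week 2, 17.3, 12.4, 18.9 and 14.6 at week 3, and 15.9, 14.2, 18.02 and 12.3 at week 4. All libraries of weeks 3 and 4 were above those of week 2. The log2 change was 0.76 from week 2 to 3 (SE 0.19, adjusted p = 0.0156) and 0.70 from week 2 to 4 (SE 0.19, adjusted p = 0.0106). The first call was lost in 5 of 14 alternative fits, with adjusted p up to 0.0996 (quantile normalization) and 0.0725 without week 2 replicate 2, and the second in 2 of 14, with adjusted p up to 0.0834 (array weights).

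Acta2 had 30.3, 19.1 and 13.8 TPM at week 2, 10.1, 40.02, 25.1 and 48.1 at week 3, and 17.9, 31.8, 44.2 and 17.0 at week 4. The 3 weeks overlapped throughout, and week 3 alone had an SD of 16.8 around a mean of 30.8 TPM. Week 4 against week 2 gave a log2 change of 0.34 (95% interval -0.75 to 1.43, adjusted p = 0.599), an interval that holds changes in either direction. Acta2 is also the actin of pericytes and vascular smooth muscle. In week 3 the 8 pericyte markers summed to 134 TPM in the library with 10.1 TPM of Acta2 and to 268 in the library with 48.1; their part in the result was not tested.

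Set side by side, 3 members rose from week 2 to week 3 (20.1% of all genes did) and 1 fell (4.01% of all genes did), 4 of 10 in all against 24.1% of genes, with 4 members whose groups did not overlap (26.8% of genes). From week 3 to week 4 none rose (5.53% of genes did) and 4 fell, namely Cdh2, Vim, S100a4 and Snai2 (8.19% of genes did; 3 of 9 members without Cdh2), against 13.7% of genes called either way and 4 members without overlap (29.4% of genes). For that step limma gave an unadjusted p under 0.05 to 5 members downward, the 4 named and Zeb1, and to 0 upward. The 3 comparisons share libraries, week 2 in both steps from week 2 and week 3 in both single steps, so they are not independent of each other.

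**Figure D2:**
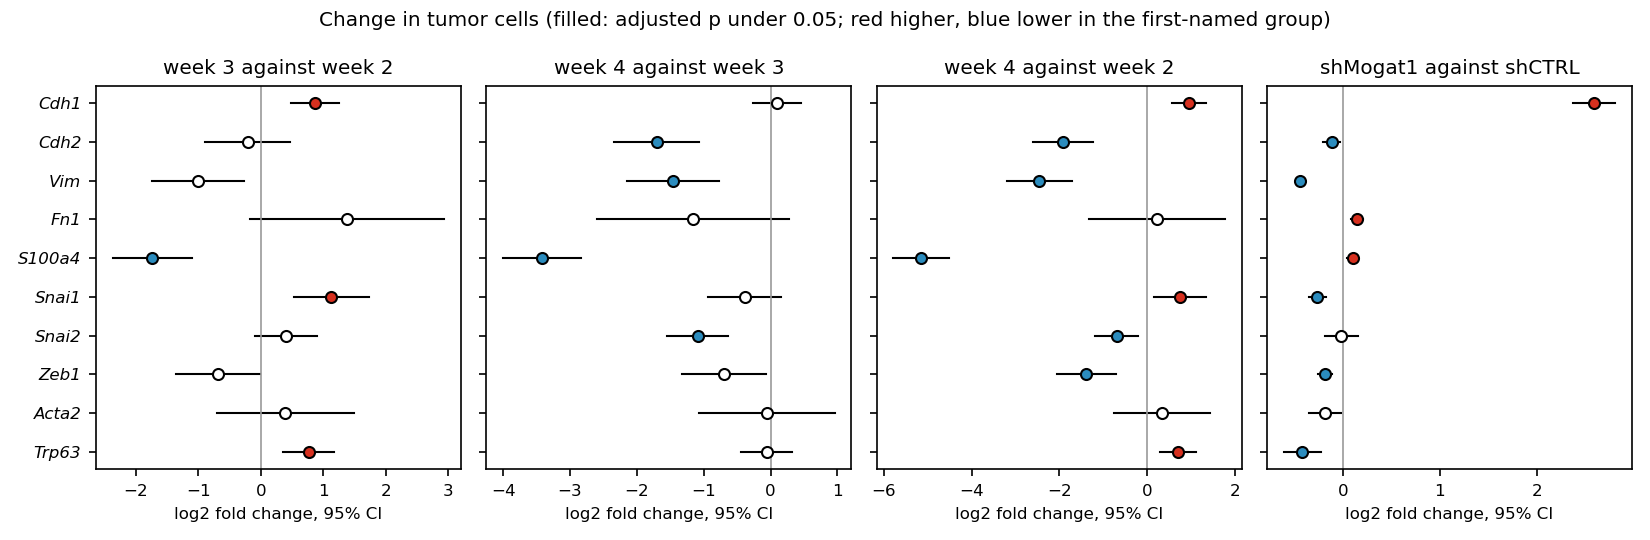
Log2 fold change (points) with 95% confidence interval (lines) of each of the 10 genes in 4 tumor cell comparisons, with a filled point where the adjusted p was under 0.05; the horizontal axes differ between panels. At week 4 against week 2 the estimates run from -5.15 (S100a4) to 0.96 (Cdh1), and in the knockdown set Cdh1 stands apart at 2.59.

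As a ratio within each library, which the library total does not affect, Vim over Cdh1 was 59.0, 83.0 and 23.1 at week 2, between 9.88 and 18.2 at week 3 and between 3.91 and 5.62 at week 4, with no overlap between weeks. Cdh1 over Cdh2 ran from 10.4 to 34.6 at week 2, from 24.7 to 53.4 at week 3 and from 211 to 376 at week 4. TPM is scaled by length, so levels of different genes can be ranked. At week 2 Vim had the highest mean and was above S100a4 and Fn1 in every library, though the ranges of Vim and Fn1 overlapped. Fn1 and S100a4 also overlapped. Then came Cdh1 and Snai1, then Zeb1, Acta2 and Snai2, and last Trp63 and Cdh2, each of these sets with overlapping ranges. Within every week 2 library Cdh1 was above Snai1 and Zeb1 above Acta2. At week 4 Fn1 (738 ± 343, SD, n = 4) and Vim (710 ± 70.0) could not be ordered, and Cdh1 (159 ± 21.6) and Snai1 (83.4 ± 14.0) came next. S100a4, Acta2, Trp63, Snai2 and Zeb1 followed, with the ranges of neighbours overlapping, and Cdh2 (0.590 ± 0.139) was last. Within every week 4 library Acta2 was above Trp63 and Trp63 above Snai2. At week 2 S100a4 was above Cdh1 and Snai1 in every library, and at week 4 it was below both in every library.

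The wider lists were chosen with these data known and give context for the members. Of all tested genes 29.2% rose and 17.1% fell from week 2 to 4. The shares were 20.1% and 4.01% from week 2 to 3, and 5.53% and 8.19% from week 3 to 4. Of 27 epithelial junction and identity genes, 26 were tested between weeks 2 and 4; 22 rose and none fell (0 also at an unadjusted p under 0.05, limma), and their median log2 change was 0.93, against 0.11 for all genes. Leading were Llgl2, a polarity protein, from 9.34 ± 2.87 to 38.6 ± 3.81 TPM (log2 change 1.97, adjusted p = 1.44e-05), and Esrp2, an epithelial splicing factor, from 10.1 ± 2.83 to 37.0 ± 2.94. Jup, the junction protein plakoglobin, went from 39.8 ± 19.3 to 130 ± 8.42 TPM. By week 3, 19 of the 26 had risen, with Jup, Esrp2 and Cldn3, a tight junction claudin, in the lead. From week 3 to 4, 9 rose and none fell, led by Llgl2, Marveld2 and Rab25, and leaving out single libraries lowered the 9 to between 3 and 5.

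Of 12 transcription factors of epithelial-mesenchymal transition, 3 rose (29.2% of all tested genes did) and 5 fell (17.1% did) between weeks 2 and 4 (median -0.33). Without Snai3, which was under 1 TPM at week 2 and tested through the later weeks, 2 of 11 rose and the median was -0.43. Besides the members these were Foxc1, from 36.2 ± 6.56 to 74.7 ± 10.9 TPM, and Snai3, from 0.796 to 1.78 TPM, both up, and Foxc2 (21.9 ± 14.4 to 4.45 ± 0.856 TPM), Zeb2 (23.0 ± 6.73 to 11.7 ± 2.22) and Tcf4 (25.9 ± 4.45 to 18.8 ± 1.63), all down. Zeb2 is the close relative of Zeb1, and Foxc1 and Foxc2 are close relatives that went opposite ways. From week 2 to 3 only Snai1 and Foxc1 of the 12 passed, both upward (20.1% of all tested genes rose). From week 3 to 4 Snai2, Foxc2 and Tcf4 fell (8.19% of all tested genes did).

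Of 21 mesenchymal effectors, 1 rose (29.2% of all tested genes did) and 6 fell (17.1% did) from week 2 to 4 (median -0.66). Without Cdh2, tested only through the weeks where it is high, 5 of 20 fell (median -0.56). Itgb3, an integrin subunit, rose from 11.5 ± 5.17 to 30.4 ± 4.98 TPM (log2 change 1.40, adjusted p = 0.000585). The non-members that fell were Postn, the matrix protein periostin (1239 ± 111 to 460.4 ± 171 TPM), Axl, a receptor kinase (182 ± 114 to 58.3 ± 16.9), and Cd44, a hyaluronan receptor (276 ± 84.8 to 145 ± 6.43). From week 2 to 3, 2 rose, Itgb3 and the membrane protease Mmp14 (20.1% of all tested genes did), and 1 fell (4.01% did). From week 3 to 4, 5 fell (8.19% of all tested genes did), and 4 of 20 without Cdh2. The 5 were Tnc, the matrix protein tenascin C, from 162 ± 64.9 to 39.8 ± 17.6 TPM, Postn, and the members Vim, Cdh2 and S100a4.

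The basal and myoepithelial list moved both ways: 4 of 16 tested genes rose (29.2% of all tested genes did) and 6 fell (17.1% did) from week 2 to 4. Without Lgr5, which was under 1 TPM at week 4, 5 of 15 fell. Krt5, a basal keratin, was at 23.6 ± 1.36 TPM at week 2, 21.9 ± 1.35 at week 3 and 1.07 ± 0.106 TPM at week 4 (log2 change -3.57, adjusted p = 1.98e-08). Cav1, a caveola protein, fell from 374 ± 159 to 31.7 ± 7.33 TPM and Procr, a receptor of basal progenitors, from 57.3 ± 18.2 to 13.9 ± 7.43. Itga6, the alpha 6 integrin, rose from 108 ± 21.8 to 335 ± 17.2 TPM, Krt17 from 34.4 ± 6.24 to 66.1 ± 10.7, and Actg2, a smooth muscle actin, from 1.798 ± 1.22 to 5.88 ± 2.96 (adjusted p = 0.0492). Krt14 fell from week 3 to 4 (69.3 ± 11.9 to 30.5 ± 4.57 TPM). At week 4 Trp63, a regulator of basal keratins, was above its week 2 level while Krt5 was below its own.

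Of 17 TGF-beta signalling genes, 6 rose and 4 fell from week 2 to 4, shares near those of all tested genes (29.2% and 17.1%). The inhibitory Smad6 rose from 7.53 ± 0.902 to 17.9 ± 1.18 TPM (log2 change 1.15, adjusted p = 3.86e-05), with Ski and Id2 also up. Id3 (307 ± 130 to 67.1 ± 23.5 TPM), Id1 (75.0 ± 11.3 to 40.9 ± 6.28) and the receptor Tgfbr1 (47.6 ± 5.85 to 27.95 ± 3.74) fell. The ligand Tgfb2 was highest at week 3, at 30.0 ± 4.42 TPM against 11.7 ± 1.804 at week 2 and 16.3 ± 2.45 at week 4. From week 2 to 3, 4 genes rose (20.1% of all tested genes did) and none fell (1 at an unadjusted p under 0.05, limma). From week 3 to 4 none rose (0 unadjusted) and 4 fell (8.19% of all tested genes did).

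Leukocyte and vessel markers moved with these changes. Between weeks 2 and 4, 6 of 7 T cell, 4 of 4 B cell and 5 of 7 endothelial markers fell, as did Ptprc, the pan-leukocyte marker (98.1, 27.4 and 42.2 TPM at week 2; 19.2, 17.8, 3.13 and 8.33 at week 4). Of all tested genes 17.1% fell and 29.2% rose. At week 4, 1, 4, 4 and 3 of the 4 B cell markers were under 1 TPM in replicates 1 to 4. The B cell markers thus passed the filter through the earlier weeks, where they are higher, and a fall to week 4 was mostly built in. Of the 7 T cell markers 0, 0, 5 and 4 were under 1 TPM in the same libraries. Of 8 fibroblast markers 1 fell (Dcn) and none rose, of 7 macrophage markers 1 fell, and of 8 pericyte markers 2 rose. Among the 4 epithelial markers Epcam, Krt8 and Krt18 rose and Krt19 fell. Their part in the fall of Vim, S100a4 and Zeb1, which leukocytes also make, was not tested.

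The genes most like each member over the 11 time course libraries were found by Pearson correlation of log2(TPM + 1), a description in which the points share 3 weeks and a common scaling. S100a4 was closest to Sh3gl3 (r = 0.994), Il18rap and Sema3a; Vim to St3gal4 (0.991), BC022687 and Rrad. Cdh2 was closest to Phlda3 (0.986), Sdc2 and Sema5a, and Zeb1 to Nfat5 (0.988), B4galt2 and Ppfibp1. For Cdh1 the nearest were Atp10d (0.978), Tmed9 and Zfp830, for Snai1 Fzd1 (0.993), Ankrd11 and Dnajb12, and for Trp63 Dlx6 (0.971), Mpg and Zfp354c. Fn1 lay nearest to Serpinh1, a collagen chaperone (0.965), Gatsl2 and Sesn3. The likeness was lowest for Snai2 (Mettl9, 0.942, then LOC102640779 and P2ry1) and Acta2 (Slc43a1, 0.869, then Pde5a and Jph2).

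The knockdown set addresses what reducing Mogat1, an enzyme of triglyceride synthesis, does to xenograft tumors. In the tumor cell libraries Mogat1 went against the labels: it had 0 reads in all 3 shCTRL libraries and 2 to 12 reads in the libraries labelled shMogat1. Directions below follow the labels as they stand. Epithelial markers other than Krt18 were low in the 3 shCTRL libraries, with Epcam at 0.653, 0.560 and 0.864 TPM (14 to 24 reads), Krt8 between 1.31 and 1.57 TPM and Krt19 between 0 and 0.233, while Krt18 was at 198 to 213. The libraries labelled shMogat1 had Epcam at 28.4, 29.6 and 30.8 TPM and Krt8 at 36.4 to 41.7. The fibroblast markers summed to between 4937 and 4978 TPM in shCTRL and between 2644 and 2721 in shMogat1, a sum in which Dcn alone had 2749 and 573 TPM on average; of the 8 markers 4 were higher in shMogat1 and 3 lower (median log2 change 0.26). The breast cancer cell label of the shCTRL libraries is therefore not borne out by Epcam, Krt8 or Krt19.

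Cdh1 was the member that differed most between the arms, 9.03-fold higher in the libraries labelled shMogat1. Vim, Cdh2, Snai1, Zeb1 and Trp63 were lower there and Fn1 and S100a4 slightly higher. In all, 3 of 10 members were higher (34.6% of the 12936 genes tested were) and 5 lower (19.9% were), 8 of 10 in all against 54.5% of genes. The arms did not overlap for 9 of 10 members, but replicates were so close that the same was true of 62.3% of genes. The median change was -0.15 over the members and 0.07 over all genes.

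Cdh1 stood at 2.01, 1.56 and 1.41 TPM in shCTRL (84 to 132 reads) and at 15.2, 15.2 and 14.5 in shMogat1. The arms were far apart compared with the spread in either (log2 change 2.59, SE 0.09, adjusted p = 3.06e-07). Cdh2 was at 21.7, 21.3 and 21.8 TPM against 19.7, 19.8 and 20.1, a difference of -0.11 on the log2 scale (adjusted p = 0.0354) that was lost when any 1 of the 6 libraries was left out (0.0625 to 0.0986). The ratio of Cdh1 to Cdh2 within a library was 0.0646 to 0.0925 in shCTRL and 0.722 to 0.773 in shMogat1, so Cdh2 was the higher of the pair in all 6 libraries and by less in shMogat1.

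Vim had 8561, 8449 and 8521 TPM in shCTRL and 6362, 6191 and 6174 in shMogat1, a log2 change of -0.45 (SE 0.02, adjusted p = 3.51e-07). Fn1 had 6888, 7061 and 7177 TPM against 7901, 7525 and 7940.4 (0.15, adjusted p = 0.00171). S100a4 had 4146, 4184 and 4093 TPM against 4521, 4504 and 4295 (0.10, adjusted p = 0.00622). The arms did not overlap for any of these 3, but the higher calls of Fn1 and S100a4 rest on the scaling: after median-of-ratios rescaling their changes were 0.06 (adjusted p = 0.0816) and 0.01 (adjusted p = 0.772). The fall of Vim kept its call in all 12 alternative fits.

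Among the transcription factors, Snai1 had 72.9, 73.0 and 77.9 TPM in shCTRL and 62.9, 63.5 and 59.5 in shMogat1 (log2 change -0.26, SE 0.04, adjusted p = 0.000669). Zeb1 had 57.0, 54.1 and 56.4 TPM against 49.7, 48.3 and 49.6 (-0.18, SE 0.03, adjusted p = 0.00183). Both were lower in every shMogat1 library than in any shCTRL library, at 0.831 and 0.881 of the shCTRL means. Snai2 had 11.6, 11.3 and 12.3 TPM against 11.7, 10.5 and 12.7, and the arms overlapped (-0.01, 95% interval -0.19 to 0.16, adjusted p = 0.884). Trp63 was low in both arms, at 3.91, 3.73 and 3.63 TPM and at 2.68, 2.59 and 2.42 (-0.42, SE 0.08, adjusted p = 0.00349). Acta2 had 7.41, 7.39 and 8.45 TPM against 6.55, 6.76 and 6.77 and missed the threshold (-0.18, adjusted p = 0.0574; 0.0146 after rescaling).

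The wider lists showed where the members stood. Of all tested genes 34.6% were higher in shMogat1 and 19.9% lower. Of 21 tested epithelial genes 20 were higher in shMogat1 and none lower (0 also at an unadjusted p under 0.05, limma), but 11 of the 21 had a shCTRL mean under 1 TPM and were tested only through the shMogat1 libraries; of the other 10, 9 were higher (median 0.53, all genes 0.07). Epcam led (0.692 ± 0.155 to 29.6 ± 1.17 TPM), followed by Esrp1 (0.0113 to 5.34 ± 0.215) and Rab25 (0.120 to 5.98 ± 0.210). Of 21 mesenchymal effectors 12 were higher and 8 lower (median 0.10): Itgb3 (6.84 ± 0.226 to 28.1 ± 0.976 TPM), Lox, a collagen crosslinking enzyme (47.8 ± 2.00 to 171 ± 3.84), and Ncam1 led upward, and Mmp2, a matrix protease (441 ± 2.40 to 151 ± 6.40), and Cd44 downward. Of 11 such transcription factors 1 was higher (Foxc1) and 5 lower, with Foxc2, Prrx1 and Twist1 beside Snai1 and Zeb1. In the basal list 6 were higher and 7 lower of 15; of the 11 with a mean of at least 1 TPM in both arms, 3 were higher and 6 lower. The keratins Krt14 (0.341 to 8.18 ± 0.554 TPM), Krt17 and Krt5, tested only through shMogat1, were higher, while Actg2 (8.37 ± 0.374 to 1.71 ± 0.219 TPM) and Procr were lower, as was Cnn1, tested only through shCTRL (1.26 to 0.139 TPM). Of 17 TGF-beta genes 6 were higher, led by Id2, Tgfb2 and Tgfb1, and 4 lower, among them Tgfbr3, Ltbp1 and Smad3, near the shares of all tested genes (34.6% and 19.9%).

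**Figure D3:**
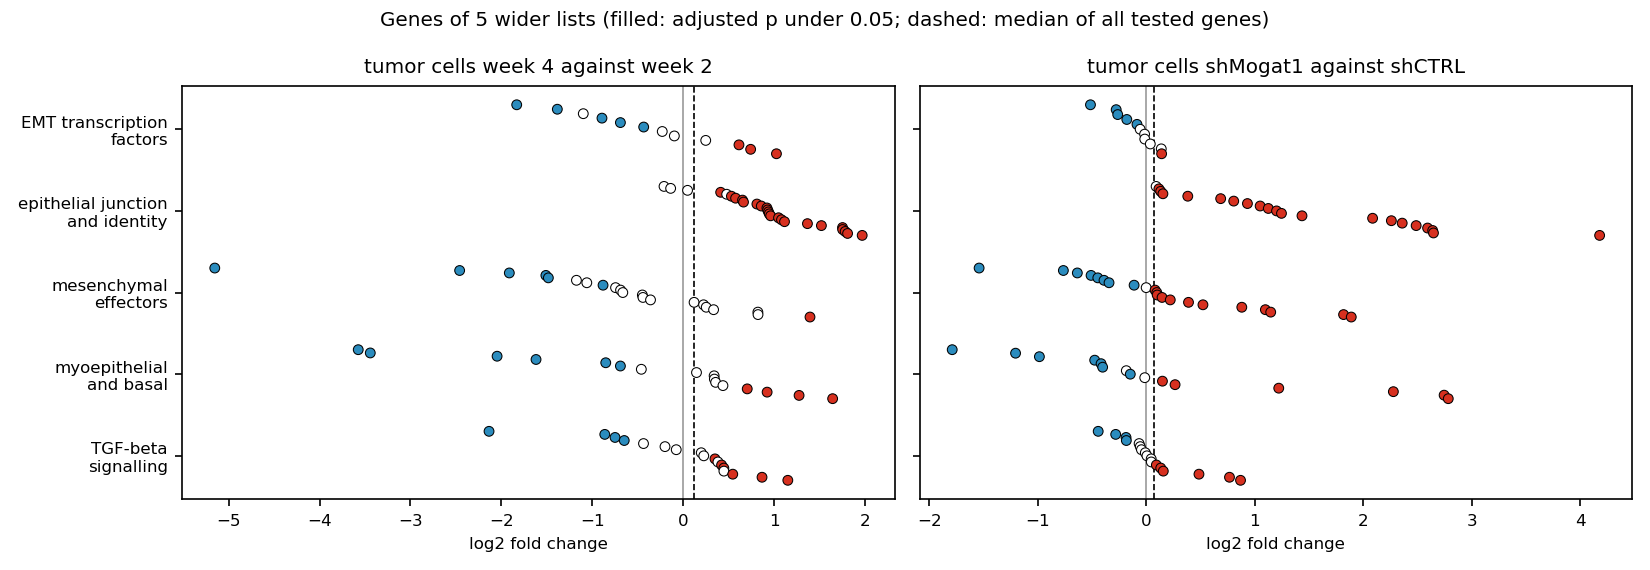
Log2 fold change of every tested gene of 5 wider lists in tumor cells, week 4 against week 2 (left) and shMogat1 against shCTRL (right); each point is a gene, filled where the adjusted p was under 0.05 (red higher, blue lower in the first-named group), and the dashed line is the median of all tested genes. In the epithelial list 22 of 26 genes rose on the left and 20 of 21 were higher on the right with none lower, while the other lists spread to both sides. Only 10 of the 21 on the right had a mean of at least 1 TPM in both arms, and 9 of these were higher. The rest were tested only through shMogat1.

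Other cell markers differed between the arms as well. The 4 epithelial markers summed to 199.99 to 215 TPM in shCTRL and 917 to 957 in shMogat1. All 7 macrophage markers (257 to 280 against 530.4 to 542 TPM) and all 6 tested T cell markers were higher in shMogat1. Of all tested genes 34.6% were higher and 19.9% lower. The 7 T cell markers summed to 2.46 to 4.15 TPM in shCTRL and 14.7 to 15.1 in shMogat1. In the shCTRL libraries 5, 7 and 7 of these 7 were under 1 TPM, against 0, 1 and 1 in shMogat1. They were thus tested largely through shMogat1, and a higher value there was mostly built in. Of the 8 fibroblast markers 4 were higher and 3 lower, among the latter Dcn, the proteoglycan decorin (2749 ± 14.2 against 573 ± 3.90 TPM). Their part in the differences of Cdh1 and Vim was not tested.

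Beside the time course the knockdown set lay at the mesenchymal end, a description only, because the tables were scaled separately. Vim was at 6174 to 8561 TPM in the 6 knockdown set libraries and at 608 to 5968 in the time course. Cdh1 was at 1.41 to 15.2 TPM in the former and at 59.2 to 187 in the latter. Vim over Cdh1 was between 4269 and 6062 in shCTRL and between 408 and 425 in shMogat1, where no time course library exceeded 83.0. S100a4 (4093 to 4521 TPM), Fn1 (6888 to 7940.4), Cdh2 (19.7 to 21.8) and Zeb1 (48.3 to 57.0) were above, and Trp63 (2.42 to 3.91) and Acta2 (6.55 to 8.45) below, every time course library. Snai1 (59.5 to 77.9) and Snai2 (10.5 to 12.7) lay inside the time course range. In shCTRL the order was Vim, Fn1, S100a4, Snai1, Zeb1, Cdh2, Snai2, Acta2, Trp63 and Cdh1, with no overlap between neighbours. In shMogat1 Fn1 came before Vim and Cdh1 moved up to the seventh place, between Cdh2 and Snai2, again with no overlap.

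**Figure D4:**
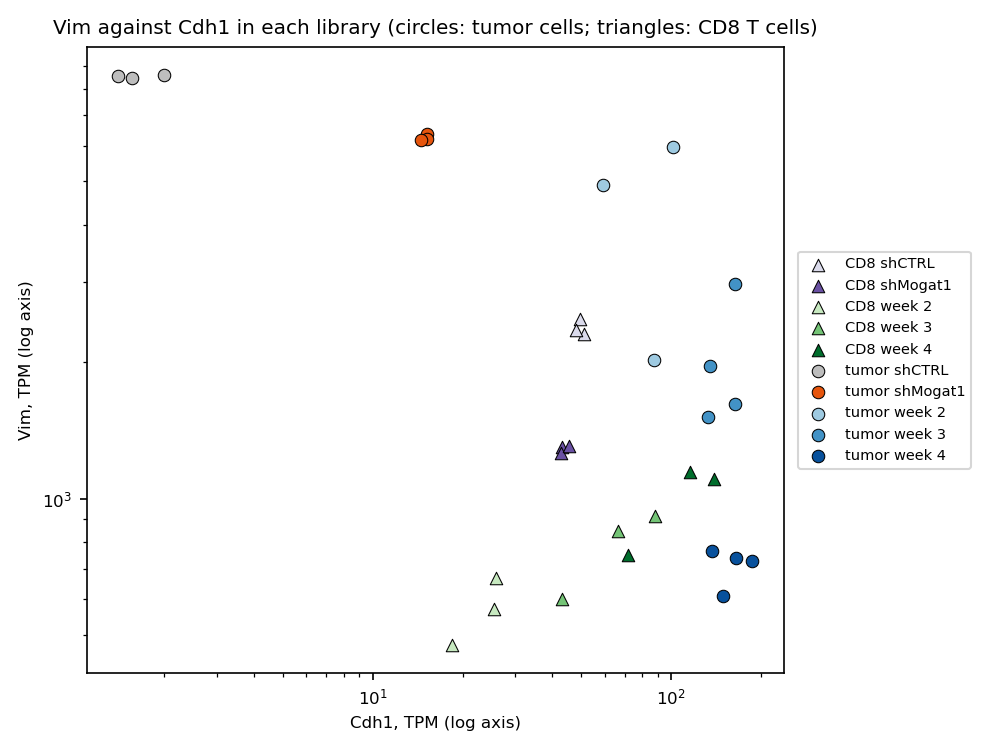
Vim against Cdh1 in TPM (both axes log) in each of the 32 libraries, circles for tumor cells and triangles for CD8 T cells, colored by group; the 4 tables were scaled separately. Tumor cell libraries run from week 4 at lower right (Vim 608 to 766 TPM) over weeks 3 and 2 to the knockdown set at upper left, with shMogat1 (Cdh1 14.5 to 15.2 TPM) to the right of shCTRL (1.41 to 2.01 TPM).

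In the CD8 T cells, where Vim and Zeb1 are normal parts of the cell's own expression, 7 members were tested over time, and Cdh2, Snai2 and Trp63 did not pass the filter. From week 2 to 4, 3 of 7 rose (10.3% of 13350 genes did) and none fell (7.18% of genes did; limma gave 1, Acta2, an unadjusted p under 0.05), with 17.5% of genes called either way. Cdh1 went from 18.4, 25.5 and 26.0 TPM to 116, 139 and 71.7 (log2 change 2.14, SE 0.30, adjusted p = 0.00376). The 4 epithelial markers summed to 42.9 to 84.1 TPM at week 2 and 80.3 to 118 at week 4 in these libraries, beside 4501 to 5234 TPM of the 7 T cell markers, and their part in the rise of Cdh1 was not tested. S100a4 (178 ± 90.7 to 513 ± 176 TPM, adjusted p = 0.0185) and Vim (571 ± 95.6 to 998 ± 216 TPM, adjusted p = 0.0338) also rose. Each of these last 2 calls was lost when any of 4 of the 6 libraries was left out: week 2 replicates 1 and 2 and week 4 replicates 2 and 3 (Vim, adjusted p = 0.0912 to 0.115; S100a4, 0.0608 to 0.0627).

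In the CD8 T cells of the knockdown set 9 members were tested, of which 1 was higher in shMogat1 (16.6% of 13742 genes were) and 6 were lower (26.2% were), against 42.8% of genes called. Vim was at 2489, 2308 and 2348 TPM in shCTRL and at 1298, 1263 and 1302 in shMogat1 (log2 change -0.89, SE 0.04, adjusted p = 1.99e-06). Fn1 went from 1446 ± 26.4 to 815 ± 36.5 TPM, S100a4 from 1018 ± 30.1 to 640.3 ± 26.0 and Snai1 from 19.5 ± 1.15 to 10.4 ± 1.26. Zeb1 was the member that was higher (37.5 ± 1.79 to 44.4 ± 1.64 TPM, log2 change 0.24, adjusted p = 0.00683). Cdh1 (-0.17, adjusted p = 0.0166) and Cdh2 (-0.34, adjusted p = 0.0353) were also lower, but Cdh1 lost its call in 4 of 12 alternative fits (adjusted p up to 0.0821; 0.0524 after median-of-ratios rescaling) and Cdh2 in 9 of 12 (adjusted p up to 0.226). The libraries whose removal cost Cdh1 its call were shMogat1 replicates 1 (0.0576) and 2 (0.0588), and for Cdh2 these 2 (0.107 and 0.0807) and shCTRL replicates 1 (0.0931) and 3 (0.0959). The epithelial markers summed to 44.2 to 48.2 TPM in shCTRL and 166 to 169 in shMogat1. Summed fibroblast markers were 2472 to 2584 TPM in shCTRL and 1477 to 1535 in shMogat1 in these libraries. Summed macrophage markers were 1845 to 1888.5 TPM in shCTRL and 1998 to 2103 in shMogat1, and of 7 such markers 4 were higher and 1 lower. In the CD8 time course, which was scaled separately, the macrophage sums ranged from 54.6 to 674 TPM and Fn1 from 6.26 to 122 TPM. The part of the epithelial, fibroblast and macrophage markers in the differences was not tested.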

How the data were processed

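Stranded mRNA libraries were made from 1 ug of total RNA extracted with TRIZOL, per the labels' protocols. Per the submitters' processing notes, reads were processed with FastQC, Trim Galore and HISAT2 on mm10; versions, the read counter and the gene annotation are not given in the sources used here. The authors deposited TPM values in 4 separately scaled tables of 33681 rows, of which 27 rows named by a date (at most 0.184% of the TPM of a library) were left out. The totals of TPM carry no depth; for 7 of the 10 members, whole read numbers were recovered from the steps between values (within 0.05 of a whole number) and are quoted as depth only.

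Groups were taken from the sample titles. Within each table, log2(TPM + 1) of genes with at least 1 TPM in at least 3 libraries was fitted with limma 3.58.1 (R 4.3.3, lmFit and eBayes with trend), with all groups of the table in the fit, two-sided, and p-values were adjusted by Benjamini-Hochberg over all tested genes with a threshold of 0.05. Fold changes are on the log2(TPM + 1) scale, which understates changes of low genes. The method was tested on simulated data. No member was compared by a test between tables. Replicates differed by more than sampling noise, but far less so in the knockdown set. The chi-square of recovered reads per degree of freedom between replicates was 8.08 to 55.1 in the tumor cell time course. It was 14.3 to 24.4 in the CD8 time course. In the knockdown set it was 2.22 to 2.59 in tumor cells and 2.32 to 3.36 in CD8 T cells. Gene positions come from GENCODE M21 and promoters from RefSeq (GRCm38.p6); windows of Vim and Acta2 overlap annotated exons and are not printed. From each wider list the text names up to 3 non-members with the largest rise and up to 3 with the largest fall past the threshold. One gene that this rule names is not reported here. The members, the lists and the marker genes were chosen with earlier results of these data known. Alternatives were a pseudocount of 0.25, no filter, median-of-ratios rescaling, quantile normalization, array weights, a replicate block, a fit of only the 2 groups compared and leaving out each library.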

Additional observations from a re-analysis of the deposited data

Results flagged for a closer look

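For 2 members the time courses of tumor cells and CD8 T cells ran in opposite directions, with every week 4 library on the other side of every week 2 library in both cell types. The ratio of the week 4 to the week 2 mean of Vim was 0.165 in tumor cells and 1.75 in CD8 T cells, and that of S100a4 was 0.0255 and 2.88. In CD8 T cells the limma call of Vim was lost in 5 of 13 alternative fits (adjusted p up to 0.115). That of S100a4 was lost in 4 of 13 (up to 0.0627). Over all tested genes, weeks 2 and 4 did not overlap for 45.0% in tumor cells and 37.0% in CD8 T cells. In the knockdown set 4 members were flagged in the same way, by arms that did not overlap and lay in opposite order in the 2 cell types. The arms did not overlap for 62.3% of all tested genes in tumor cells and 54.8% in CD8 T cells. How many of all genes lay in opposite order was not counted. The ratio of the shMogat1 to the shCTRL mean of Cdh1 was 9.03 in tumor cells and 0.884 in CD8 T cells (the latter call lost in 4 of 12 alternative fits), that of Fn1 1.11 and 0.564, that of S100a4 1.07 and 0.629, and that of Zeb1 0.881 and 1.18. The tumor cell side of Fn1 and S100a4 rests on the scaling. After median-of-ratios rescaling limma gave log2 changes of 0.06 (adjusted p = 0.0816) and 0.01 (adjusted p = 0.772). The difference between cell types was not tested for any of these genes, since the tables were scaled separately. Among 20 checks of groups of 4 libraries, none held a library far enough from the others to be flagged.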

How the results depend on the processing

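Member values were refitted 749 times under the alternatives, of which 677 kept direction and side of the threshold, 56 lost a call, 16 gained one and 0 turned a called direction. For week 3 against week 2, 2 members fell with median-of-ratios rescaling and with quantile normalization in place of 1, and 1591 genes in place of 3560 passed with only the 2 groups in the fit. For week 4 against week 3, 2026 genes became 4614 with array weights and 3868 with only the 2 groups. In tumor cells of the knockdown set 1 member in place of 3 was higher after median-of-ratios rescaling. In CD8 T cells over time 1 member in place of 0 fell with quantile normalization, array weights and only the 2 groups, and 2335 genes became 5910 with array weights and 1333 with only the 2 groups; in the CD8 knockdown set 2 members in place of 1 were higher with quantile normalization. Median-of-ratios rescaling changed the split of higher and lower calls from 4318 and 2525 to 3544 and 3425 (weeks 2 to 4), from 2967 and 593 to 1952 and 1407 (weeks 2 to 3), from 4479 and 2573 to 3124 and 3758 (tumor knockdown set) and from 2279 and 3599 to 3006 and 2980 (CD8 knockdown set). Quantile normalization gave 817 and 1209 as 1203 and 1135 (weeks 3 to 4) and 1377 and 958 as 1300 and 1416 (CD8 time course).

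Leaving out single libraries gave these ranges. Week 4 against week 2: 2 to 3 members higher, 4 to 5 lower, 5278 to 7765 genes. Week 3 against week 2: 1 to 4 higher, 1 to 3 lower, 1371 to 5751 genes, the lowest without week 2 replicate 2 and the highest without week 2 replicate 1; 2275 and 2259 genes without week 3 replicates 3 and 4. Week 4 against week 3: 0 higher, 4 lower, 1251 to 1656 genes, with the lowest counts without week 3 replicate 3 (1251) and week 4 replicates 3 and 4 (1289 and 1294). Tumor knockdown set: 3 higher, 4 lower, 5842 to 6369 genes. CD8 time course: 1 to 3 higher, 0 lower, 928 to 3115 genes, 950 and 928 without week 2 replicates 1 and 2, and 1103 and 1161 without week 4 replicates 2 and 3, each of which also left 1 member higher. CD8 knockdown set: 1 higher, 4 to 6 lower, 4620 to 5465 genes.

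Among the lists, higher epithelial genes ranged from 21 to 22 (weeks 2 to 4), 13 to 20 (weeks 2 to 3), 3 to 14 (weeks 3 to 4) and 9 to 24 (knockdown set, 9 to 10 without any 1 shMogat1 library, where fewer genes pass the filter); lower ones ranged from 0 to 1 in each single step and were 0 elsewhere. TGF-beta genes that rose from week 2 to 4 ranged from 1 to 9.

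With the replicate number as a block, 5885, 2408, 1470, 6709, 1422 and 4003 genes passed in the 6 comparisons in the order given (2335 without the block for the CD8 time course), and the members higher and lower were 2 and 4, 3 and 1, 0 and 4, 3 and 4, 3 and 0, and 1 and 4. After the group means were taken away, the deviations of same-numbered libraries correlated from -0.263 to 0.233, with 2 of 17 pairs over 0.1. Deviations within such small groups are tied to each other, so these values do not settle whether same-numbered libraries share an origin. Tumor cell and CD8 T cell libraries of the same number were not compared in this way. Depth limits Cdh2 at week 4 and Cdh1 in shCTRL of the tumor cells, and in CD8 T cells Snai1 at week 2 (14 to 92 reads), Acta2 at week 4 (33 to 64) and Snai2 in shMogat1 (39 to 65).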
